A study of Mus musculus with 4 samples.

Results

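Core thermogenic genes of brown adipocytes were examined in fetal BAT, the heat-producing fat of mammals. They are 8 of the 22298 genes in the count table: Ucp1, Cidea, Dio2, Elovl3, Cox7a1, Cox8b, Otop1 and Kcnk3. They were taken by symbol as known effectors of brown fat, all 8 were found by their Ensembl identifiers, and all 8 had enough counts for the test. RNA-seq was performed on BAT of C57BL/6 fetuses (the methods name C57BL/6J mice) at E18.5, whose dams drank sterilized tap water (control, 2 libraries) or water with 20% (w/v) fructose (fructose, 2 libraries) during pregnancy. All 4 libraries are labelled male. How many fetuses or litters each holds is not given in the sources used here. The p-values therefore measure only the spread between these libraries, which may be technical.

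Brown adipocytes burn fatty acids and glucose in densely packed mitochondria and release the energy as heat. Noradrenaline from sympathetic nerves acts on beta-adrenergic receptors, cAMP rises, lipid droplets are broken down, and the fatty acids both fuel the respiratory chain and open UCP1, a carrier that lets protons return across the inner mitochondrial membrane without making ATP. Thyroid hormone, activated inside the cell by the deiodinase that Dio2 encodes, raises the transcription of the same programme.

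The count totals lay between 18542897 and 23645147 per library. Several features of the libraries differed between the groups beside the treatment. Y-linked transcripts (Ddx3y, Eif2s3y, Uty and Kdm5d) summed to 422 and 390 counts in the controls but to 0 in each fructose library, against the male label of the latter. Since this holds for every fructose library, the diet and the sex read from these genes cannot be told apart in any comparison here. Mitochondrially encoded genes held 5.89% and 6.49% of the control counts and 10.8% and 11.2% of the fructose counts. Markers of skeletal muscle were higher in fructose, 23 of 24 at an adjusted p-value under 0.05, and their summed level rose from 406 and 528 CPM to 1142 and 899.6 CPM. Across 12884 tested genes, the log2 fold change rose with transcript length (Spearman's rho 0.50) and fell with GC content (rho -0.50), a description across genes that share the same 4 libraries.

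Of the members, 5 were found in the set of RefSeq promoters (GRCm38.p6) used here. The bases upstream of the start are shown for Ucp1, the defining gene of the tissue, for Dio2, the member with the fewest counts, and for Cox7a1 and Cox8b, which fell together. Each window begins 250 bases before the RefSeq start and stops before the first base that RefSeq or GENCODE annotates as transcribed. All are written 5′ to 3′ on the strand of the gene. Capitals mark the letters searched, on both strands. TGACGTCA is the cAMP response element, and its 5-base part TGACG was searched too, so that every full element holds the part. The half-site of nuclear receptors was searched as AGGTCA. The letters TATANA stood for the TATA box. An E-box that myogenic factors bind was searched as CAGCTG.
Ucp1, chr8:83290098-83290347, plus strand: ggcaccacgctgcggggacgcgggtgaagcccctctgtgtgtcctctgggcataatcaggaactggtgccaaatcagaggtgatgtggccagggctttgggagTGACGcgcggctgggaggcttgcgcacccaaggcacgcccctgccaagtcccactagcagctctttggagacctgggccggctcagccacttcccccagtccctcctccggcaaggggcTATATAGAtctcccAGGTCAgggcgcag
Dio2, chr12:90739039-90739288, minus strand: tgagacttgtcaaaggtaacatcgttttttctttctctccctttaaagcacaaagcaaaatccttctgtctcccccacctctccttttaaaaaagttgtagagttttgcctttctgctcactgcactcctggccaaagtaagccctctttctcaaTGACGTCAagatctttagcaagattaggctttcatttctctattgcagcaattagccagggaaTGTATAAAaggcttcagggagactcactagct
Cox7a1, chr7:30183921-30184143, plus strand: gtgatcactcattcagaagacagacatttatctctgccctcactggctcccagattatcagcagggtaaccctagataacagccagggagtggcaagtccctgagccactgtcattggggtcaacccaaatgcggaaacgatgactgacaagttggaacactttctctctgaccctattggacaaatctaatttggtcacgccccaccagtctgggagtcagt
Cox8b, chr7:140900447-140900696, minus strand: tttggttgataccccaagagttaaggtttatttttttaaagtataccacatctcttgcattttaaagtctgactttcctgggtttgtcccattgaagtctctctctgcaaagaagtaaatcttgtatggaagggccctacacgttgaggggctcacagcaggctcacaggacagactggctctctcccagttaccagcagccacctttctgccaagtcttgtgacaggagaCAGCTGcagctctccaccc
Dio2 held the full cAMP response element, 88 to 95 bases before its RefSeq start, a match present in 1.55% of 32851 promoter windows of 250 bases. The RefSeq start of Dio2 lies 600 bases upstream of the GENCODE start. Ucp1 held the 5-base part (17.8% of windows) and an AGGTCA half-site (14% of windows), and both Ucp1 and Dio2 held TATANA (22.6% of windows). Cox8b held CAGCTG (13% of windows), and Cox7a1 held none of these letters in its 223 bases.

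Fetal BAT already carried these transcripts at very different levels. Per length, in TPM from the counts and the merged exon length of each gene, Ucp1 was ranked 6 among the 22255 genes with a length, behind mt-Co3, mt-Co1, mt-Co2, Hbb-bs and mt-Atp6. Its level was 16027 ± 2857 TPM in control and 15190.2 ± 1161 TPM in fructose (SD, n = 2 libraries each). Ucp1 lay between ranks 5 and 8 in every library. Cidea followed at rank 18 with 7049 TPM over the 4 libraries, then Cox8b (rank 34, 3610 TPM) and Cox7a1 (rank 39, 2893 TPM). These 4 genes stood among the most abundant transcripts of the tissue.
Kcnk3 (rank 517, 232 TPM), Otop1 (rank 1671, 59.6 TPM) and Elovl3 (rank 2350, 39.7 TPM) were intermediate. Dio2 was the lowest member, at rank 9062 and 2.86 TPM, above only 18.7% of the 11148 genes with at least 1 TPM on average. Between neighbours in this order, Ucp1 was 2.01 to 2.53 times Cidea in single libraries, and Cox7a1 was 11.5 to 13.6 times Kcnk3. The ranges of Cox8b and Cox7a1 overlapped across libraries, although Cox8b was the higher of the pair in each (1.18 to 1.34 times). Otop1 and Elovl3 also overlapped, with Otop1 between 0.976 and 2.85 times Elovl3.

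**Figure D1:**
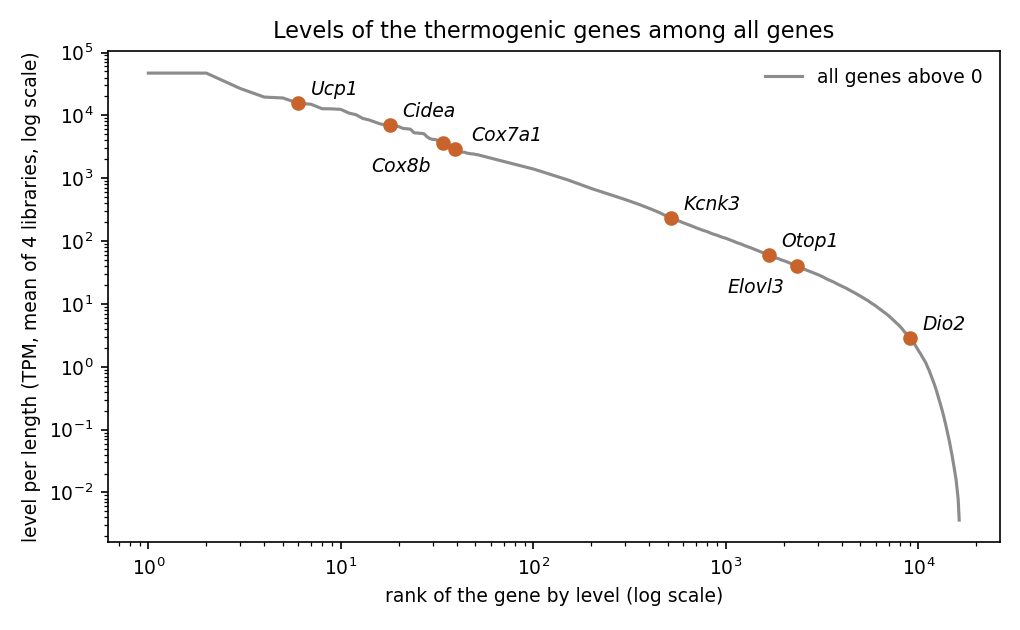
Mean level per length of every gene above 0 (TPM over 4 libraries, log scale) against its rank (log scale), with the 8 thermogenic genes as points. Ucp1, Cidea, Cox8b and Cox7a1 sit within the first 39 ranks, and Dio2 sits at rank 9062.

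Together the members held 1.47% and 1.71% of all counts in control and 1.60% and 1.48% in fructose, and Ucp1 made up 65.0% to 70.6% of them. The summed share therefore overlapped between the groups. Individual members did not move alike. At an adjusted p-value under 0.05 (edgeR's quasi-likelihood test, Benjamini-Hochberg over 12888 tested genes), Elovl3 was higher in fructose, Cox7a1, Cox8b and Kcnk3 were lower, and Ucp1, Cidea, Dio2 and Otop1 were not called. This was 4 of 8 members, while 26.2% of all tested genes were called, 15.5% higher and 10.7% lower. By the thresholds of an unadjusted p under 0.05 and a fold above 1.3, 2 members were higher (Dio2 and Elovl3) and 2 lower (Cox8b and Kcnk3), against 23.8% of all tested genes, 17.6% higher and 6.18% lower. The groups did not overlap for 5 of the 8 members (Dio2, Elovl3, Cox7a1, Cox8b and Kcnk3), while 65.1% of all tested genes had groups that did not overlap. In bulk tissue, fewer brown adipocytes and less RNA of a gene per cell cannot be told apart.

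**Figure D2:**
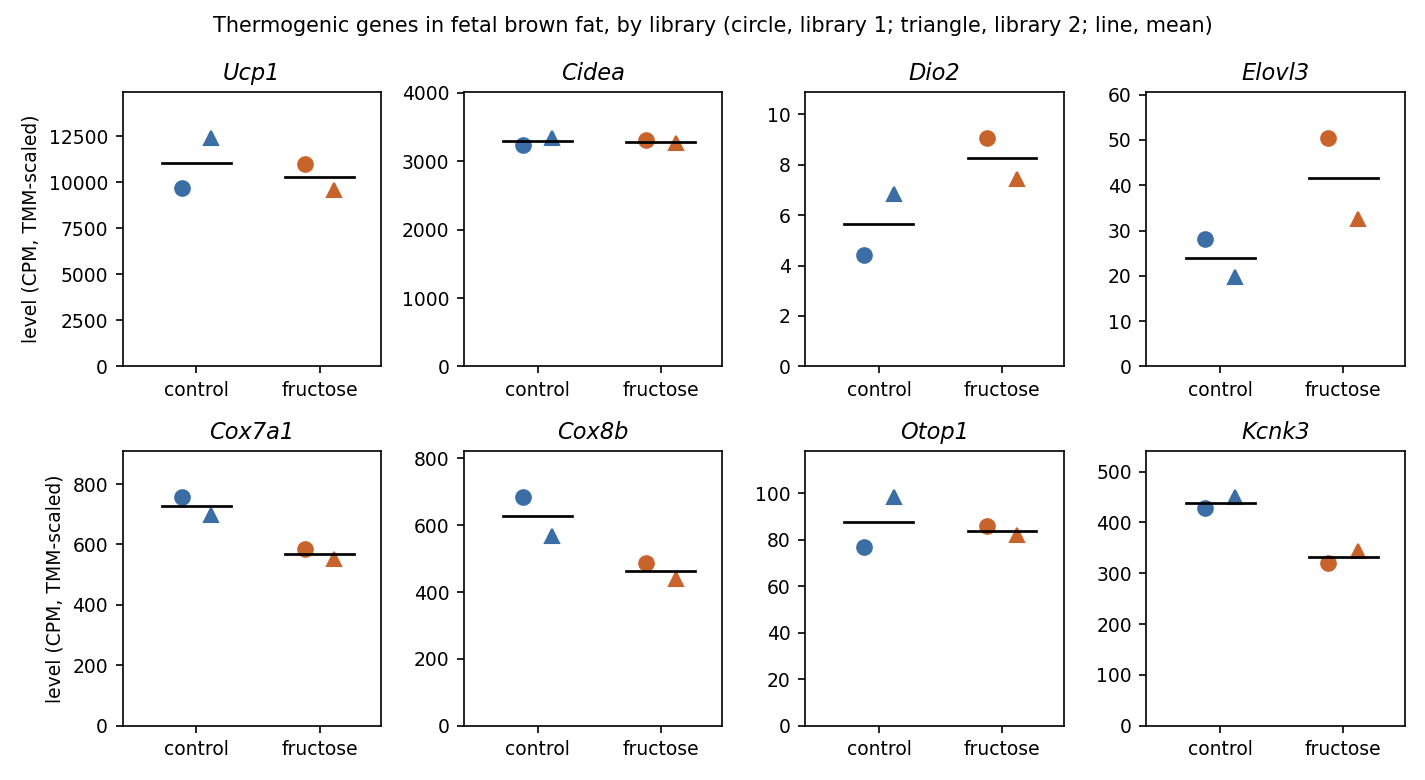
Level of each thermogenic gene (CPM after TMM scaling, axes from 0) in the 2 control and 2 fructose libraries, with the group mean as a line. Both fructose libraries lay above both control libraries for Dio2 and Elovl3, below them for Cox7a1, Cox8b and Kcnk3, and between them for Cidea and Otop1. For Ucp1 one fructose library lay between the controls and the other just below both.

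Ucp1 (ENSMUSG00000031710, chr8:83290352-83298452, 6 exons) encodes the proton carrier that makes brown fat thermogenic. Its level, in CPM (counts scaled to a common library total after TMM), was 9705 and 12425 in control and 11004 and 9606 in fructose. The fructose libraries fell on both sides of the lower control library, and the control libraries differed more from each other than the group means did. The log2 fold change was -0.10 (95% interval -0.38 to 0.18, adjusted p = 0.59), so that changes from 0.768-fold to 1.13-fold were compatible with these libraries. Without control replicate 1 the fold change was -0.27 and edgeR called it (adjusted p = 0.0071), and without control replicate 2 it was 0.087. The direction of Ucp1 therefore rested on which control library was used. Beside its relatives Ucp2 and Ucp3, Ucp1 held 99.3% of the TPM of the 3 genes in every library.
Of 7810 tested genes with a mean of at least 10 CPM, the 5 whose centred log2 CPM followed Ucp1 most closely over the 4 libraries were Ddx28, Gm45140, Mrpl46, Chdh and Pgk1, with root mean square differences of 0.0164 to 0.025. With 4 libraries such likeness is weak, and Otop1 ranked 52 by the same measure, Cidea 1675 and Kcnk3 4853.

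Cidea (ENSMUSG00000024526, chr18:67343604-67367785) encodes a lipid droplet protein that promotes droplet fusion and growth and marks brown adipocytes. Its levels of 3236 and 3343 CPM in control and 3311 and 3258 CPM in fructose were nearly the same in every library. The log2 fold change was -0.0021 (95% interval -0.20 to 0.19, adjusted p = 0.99). After removal of both the length trend and the GC content trend it was 0.32, not called (adjusted p = 0.060). Cidec, its relative of large lipid droplets in white and brown fat, fell from 1426 ± 55.1 CPM in control to 1186 ± 22.6 CPM (SD, n = 2 libraries each; log2 fold change -0.27, adjusted p = 0.040), with a change of 0.0088 once both trends were removed. Cidea made up 79.5% and 79.1% of the TPM of Cidea, Cideb and Cidec in control and 82.1% and 82.2% in fructose, so that the shares did not overlap. Family shares were described only, without a test. Cideb, of liver and intestine, had 17 to 35 counts.

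Elovl3 (ENSMUSG00000038754, chr19:46131897-46135694) encodes an elongase that lengthens saturated and monounsaturated fatty acids, and is induced by cold in brown fat. The controls had 533 and 358 counts of it and the fructose libraries 1142 and 797. These correspond to 28.1 and 19.9 CPM in control and 50.5 and 32.5 CPM in fructose, so both fructose libraries were above both controls, though the libraries of each group differed widely. Elovl3 rose 1.73-fold (95% interval 1.29 to 2.31; log2 fold change 0.79, standard error 0.19, adjusted p = 0.012). Elovl3 alone of the members was still called once both trends were removed (0.92, adjusted p = 0.014), a setting in which 8.38% of all tested genes were called, 4% higher. By DESeq2, 19.1% of the 12638 genes it gave an adjusted p-value were called. Elovl3 was not among them, at nearly the same size of change (0.78, adjusted p = 0.15). Leaving out fructose replicate 1 gave 0.44, still called by edgeR (adjusted p = 0.046).
Other elongases were measured beside it. Elovl6, which extends palmitate to stearate, rose from 13.6 ± 2.89 to 23.4 ± 5.64 CPM (SD, n = 2 libraries each; log2 fold change 0.78, adjusted p = 0.0094). Elovl5, an elongase of polyunsaturated fatty acids, rose by 0.39 (log2 scale, adjusted p = 0.0059). Neither was called with both trends removed (0.38 and 0.29, adjusted p = 0.28 and 0.052). Elovl1 was not called (log2 fold change 0.045), and Elovl2, Elovl4 and Elovl7 had at most 19 counts in any library. Elovl3 held 31.6% and 24.3% of the TPM of the 7 elongases in control and 38.3% and 31.6% in fructose, so that the shares overlapped.

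Dio2 (ENSMUSG00000007682, chr12:90724552-90738438) encodes the type 2 deiodinase that turns thyroxine into active triiodothyronine. It had 84 and 123 counts in control and 205 and 182 in fructose. At 4.43 and 6.82 CPM in control and 9.06 and 7.43 CPM in fructose, the groups did not overlap, but the gap between control replicate 2 and fructose replicate 2 was small. The log2 fold change of 0.55 (95% interval 0.075 to 1.03) was not called by edgeR (adjusted p = 0.082). It was 0.27 without control replicate 1 and 0.89 without control replicate 2, the latter called (adjusted p = 0.0017). Dio2 has a transcript of 5815 bases with 43.4% GC, and with both trends removed its change was 0.12 (adjusted p = 0.81).
Dio1, the deiodinase of liver and kidney, had 0 counts in the 4 libraries, which allows up to 0.122 to 0.166 CPM (3 counts of the total, for counting error only). Dio3, which inactivates thyroid hormone and is typical of fetal tissue, had 7 and 11 counts in control and 2 and 1 in fructose, too few for the test.

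Cox7a1 and Cox8b encode tissue-specific subunits of cytochrome c oxidase (complex IV of the respiratory chain). Brown fat, heart and skeletal muscle use them as isoforms beside the widespread Cox7a2 and Cox8a. Cox7a1 (ENSMUSG00000074218, chr7:30184144-30186078) was at 757 and 698 CPM in control and 586 and 551 CPM in fructose. Cox8b (ENSMUSG00000025488, chr7:140898945-140900446) was at 684 and 568 CPM in control and 487 and 439 CPM in fructose. For both genes every fructose library lay below every control library. Cox7a1 fell to 0.782-fold (95% interval 0.685 to 0.891; log2 fold change -0.36, adjusted p = 0.012), and Cox8b to 0.739-fold (95% interval 0.633 to 0.863; log2 fold change -0.44, adjusted p = 0.0099).
Of the widespread isoforms, Cox8a fell by 0.35 on the log2 scale (adjusted p = 0.012) and Cox7a2 had a change of -0.20 (adjusted p = 0.089). Cox8b held 34.1% and 29.8% of the TPM of Cox8a and Cox8b in control and 31.4% and 30.1% in fructose, so this share overlapped. Cox7a1 held 71.3% and 70.1% of the TPM of Cox7a1 and Cox7a2 in control and 68.6% and 68.3% in fructose, which did not overlap. Of 16 tested nuclear-encoded subunits of complex IV, both members included, 8 were lower and 1 higher at an adjusted p-value under 0.05. Of all tested genes, 10.7% were lower and 15.5% higher. The median log2 fold change of the subunits was -0.33, against 0.0025 over all tested genes. The most abundant, Cox4i1 (-0.46), Cox6a1 (-0.49) and Cox6b1 (-0.36), fell, as did Cox6b2 (-0.75), an isoform of testis. Cox7a2l, a relative that takes part in respiratory supercomplexes, was not called (-0.21, adjusted p = 0.079).
The transcripts are among the shortest of the members, 485 bases for Cox7a1 and 360 bases for Cox8b. With the length trend removed, the change was 0.027 for Cox7a1 and -0.0036 for Cox8b, and with both trends removed 0.086 and 0.056 (adjusted p = 0.58 and 0.74). Without fructose replicate 2 neither was called (-0.31 and -0.36, adjusted p = 0.12 and 0.070). With both trends removed, 3 complex IV subunits were called lower (Cox5a, Cox7c and Ndufa4), and the median was -0.035. Cox7a1 and Cox8b were thus called lower under TMM scaling, by DESeq2 and by library size only. Neither was called when scaled to pan-adipocyte markers or with the length trend removed, and the cause of this was not tested.
The one higher subunit was Cox6a2, the isoform of heart and skeletal muscle, which had 28 and 40 counts in control and 118 and 102 in fructose (log2 fold change 1.34, adjusted p = 0.0057). Once both trends were removed its change was 1.70. Cox6a2 moved with the markers of skeletal muscle, whose part in this result was not tested. Cox7a1 and Cox8b, also subunits of muscle, were lower under TMM scaling, and the part of muscle in their values was not tested.

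**Figure D3:**
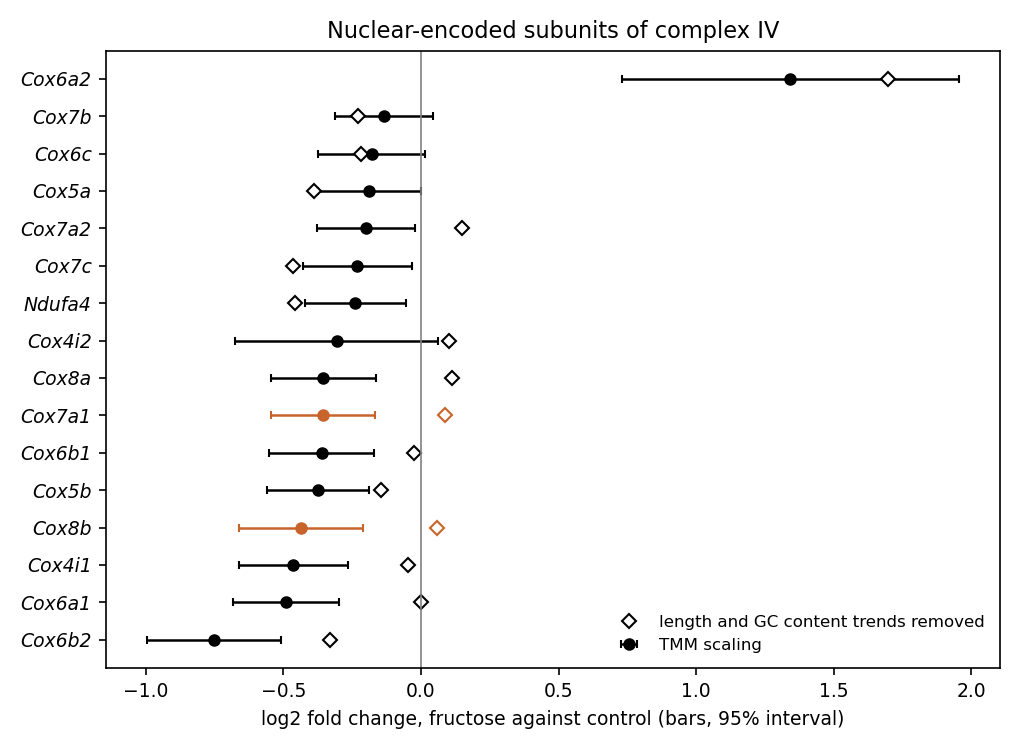
Log2 fold change of the 16 tested nuclear-encoded complex IV subunits under TMM scaling (filled circles, bars for the 95% interval) and after removing both trends, of length and of GC content (open diamonds), Cox7a1 and Cox8b in orange. Under TMM scaling 15 subunits lay below 0 and Cox6a2 alone above it, whereas the diamonds of Cox7a1 and Cox8b lie at 0.086 and 0.056.

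Kcnk3 and Otop1 encode membrane channels. Kcnk3 (ENSMUSG00000049265, chr5:30588170-30625271) encodes TASK-1, a tandem-pore potassium channel that sets the resting potential and in brown adipocytes counteracts adrenergic depolarization. It was at 428 and 450 CPM in control and 320 and 344 CPM in fructose, with close agreement within each group. Kcnk3 fell to 0.756-fold (95% interval 0.666 to 0.859; log2 fold change -0.40, adjusted p = 0.0057), and the lowest adjusted p of the members was that of Kcnk3 by edgeR and by DESeq2 (0.00023). Its transcript has 59.1% GC, the highest of the members, and the change was -0.21 with the GC content trend removed (adjusted p = 0.13) and -0.46 with the length trend removed (adjusted p = 0.0042). Without fructose replicate 1 it was -0.35 and not called (adjusted p = 0.056). Annotated genes on the opposite strand share exon bases with Kcnk3 (Gm9899, 229 bases), Dio2 (Gm26512, 100 bases) and Elovl3 (Pitx3, 10 bases), and the sources used here do not state whether the counting used the strand.
Kcnk3 was nearly the only channel of its family in the tissue. It held 97.9% and 98.4% of the TPM of 14 Kcnk genes in control and 97.0% and 96.9% in fructose, which did not overlap. The next were Kcnk6 at 83 to 133 counts and Kcnk5 at 21 to 61 counts. Kcnk2 (TREK-1) had 17 and 14 counts in control and 33 and 47 in fructose (log2 fold change 1.01, adjusted p = 0.069).
Otop1 (ENSMUSG00000051596, chr5:38275972-38304217) encodes otopetrin 1, a proton channel of the plasma membrane known from the inner ear, from taste cells and as a brown fat transcript. Its levels were 76.9 and 98.5 CPM in control and 85.9 and 82.1 CPM in fructose, the fructose libraries lying between the controls (log2 fold change -0.061, 95% interval -0.30 to 0.17, adjusted p = 0.71). Otop2 and Otop3 had 0 counts in the 4 libraries.

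**Figure D4:**
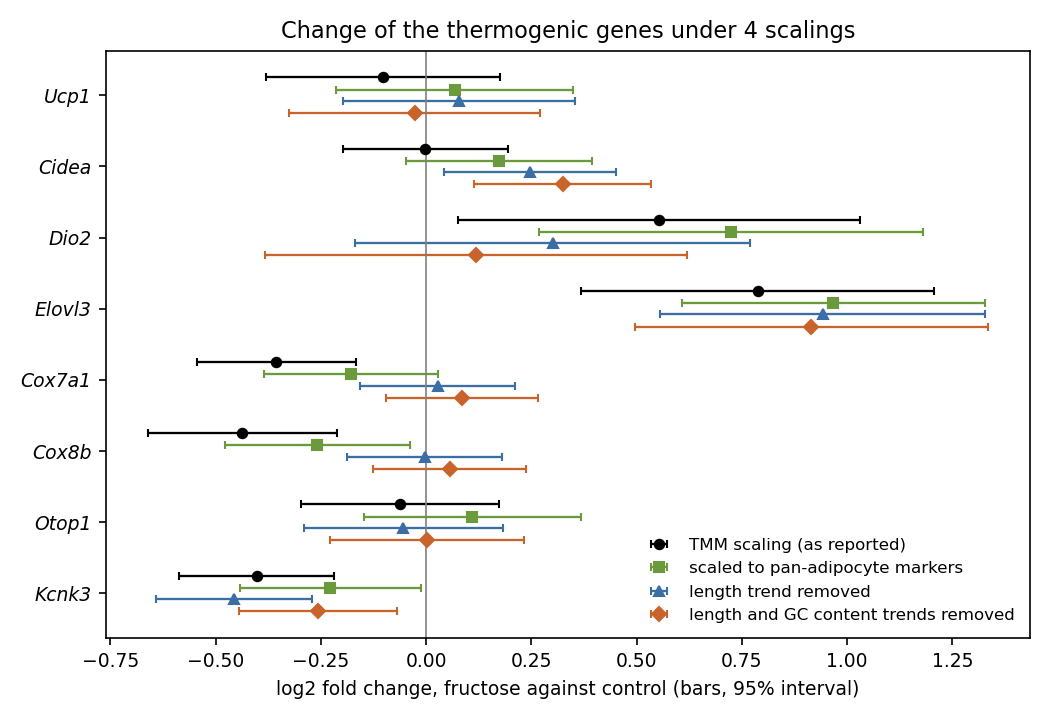
Log2 fold change of fructose against control for each thermogenic gene with its 95% interval from edgeR, under TMM scaling, scaled to pan-adipocyte markers, without the length trend and without both the length trend and the GC content trend. Elovl3 lay above 0 in each, from 0.79 to 0.97, whereas Cox7a1 and Cox8b lay below 0 under TMM scaling (-0.36 and -0.44) and at 0.086 and 0.056 with both trends removed.

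The members were also related to the transcripts that all adipocytes share. The 12 pan-adipocyte markers, among them Fabp4, Plin1, Lipe and Adipoq, summed to 19787 and 18750 CPM in control and 17170.0 and 16927 CPM in fructose. Of them, 5 were called lower and 2 higher (Lpl and Cd36). Their sum in each fructose library was below both controls, so this scale itself differed between the groups. Per 1000 pan-adipocyte counts, Ucp1 had 490 and 663 counts in control and 641 and 567 in fructose, which overlapped. Elovl3 had 1.42 and 1.06 in the controls against 2.94 and 1.92 in fructose, and Dio2 had 0.224 and 0.364 against 0.528 and 0.439. Cidea had 164 and 178 against 193 in each fructose library. Cox7a1 had 38.3 and 37.2 against 34.1 and 32.6, Cox8b 34.6 and 30.3 against 28.4 and 25.9, and Kcnk3 21.6 and 24.0 against 18.6 and 20.3. On this scale the groups did not overlap for 3 members that were higher (Elovl3, Dio2 and Cidea) and 3 that were lower (Cox7a1, Cox8b and Kcnk3), while 49.4% of all tested genes were higher without overlap and 12.8% lower. With this scaling in edgeR the median of all tested genes was 0.18 on the log2 scale, against 0.0025 under TMM. Elovl3 (0.97, adjusted p = 0.00044) and Dio2 (0.72, adjusted p = 0.019) were called higher, Cidea was not called (0.17, adjusted p = 0.25), and neither were Cox7a1, Cox8b and Kcnk3 (-0.18, -0.26 and -0.23).

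Genes around the members were examined in lists chosen by function. Adrenergic drive, which switches thermogenesis on, had 23 tested genes, of which 6 were higher and 1 lower (median log2 fold change 0.051). Adrb3, the beta-3 receptor of adipocytes, was measured at 25.8 ± 8.47 CPM in the controls against 33.8 ± 0.526 CPM (SD, n = 2 libraries each) and was not called (log2 fold change 0.39, adjusted p = 0.10). Pde3b, the phosphodiesterase that degrades cAMP in response to insulin, rose from 50.1 ± 4.37 to 92.6 ± 16.5 CPM (log2 fold change 0.89, adjusted p = 0.00058). Regulatory subunits of protein kinase A, Prkar2a (0.67) and Prkar2b (0.50), also rose, as did the CREB family factor Atf2 (0.53). Gnas, which encodes the stimulatory G protein that couples the receptors to adenylyl cyclase, was the one gene called lower (-0.30). Prkacb, a catalytic subunit of protein kinase A, rose (0.42, adjusted p = 0.011). Prkaca, another catalytic subunit of protein kinase A (-0.18), and the adenylyl cyclase Adcy6 (-0.043) were not called. With both trends removed, Prkar2a (0.50) and Pde3b (0.44) were the 2 genes called.

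Thyroid hormone action had 14 tested genes, 6 higher and 3 lower (median 0.13), against 15.5% and 10.7% of all tested genes. Thrb, a receptor of triiodothyronine, rose from 3.37 ± 0.532 to 6.49 ± 0.576 CPM (log2 fold change 0.94, adjusted p = 0.0088), whereas Thra, the receptor with the higher count level, fell by 0.35 on the log2 scale (adjusted p = 0.011). The coactivator gene Ncoa2 rose (0.85, adjusted p = 0.00056), and so did the corepressor gene Ncor1 (0.46, adjusted p = 0.0036). The coactivator genes Med1 (0.45) and Ncoa1 (0.35) also rose, whereas the nuclear receptor genes Rxrb (-0.34) and Rxrg (-0.34) fell. Me1, malic enzyme, a classical thyroid hormone target that supplies NADPH for fatty acid synthesis, rose (0.76, adjusted p = 0.0044), but not by DESeq2 (adjusted p = 0.063). Thrsp, another target, was at 2293 ± 7.03 and 2307 ± 351 CPM and was not called. With both trends removed, Ncoa2 (0.47) and Me1 (0.63) were the 2 genes called.

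Of 28 tested transcriptional regulators of the thermogenic programme, 9 were higher and 6 lower (median 0.14), against 15.5% and 10.7% of all tested genes. Ppargc1a, the coactivator of mitochondrial biogenesis that acts upstream of Ucp1, rose from 7.20 ± 0.405 CPM to 16.1 ± 2.58 CPM (log2 fold change 1.16, adjusted p = 0.00081). Ppara, a fatty acid receptor, rose (0.76), as did Esrrg, an orphan nuclear receptor of oxidative tissue (1.43), Rb1 (0.80) and Ebf2, a factor of brown fat identity (0.55). Nrip1, a corepressor that restrains the same programme, rose as well (1.01). Prdm16, a determinant of brown fat fate, was not called (0.27), nor was Pparg, the master regulator of fat cells (-0.12).
The C/EBP factors went the other way. Cebpd fell from 26.9 ± 7.09 to 16.5 ± 0.392 CPM (log2 fold change -0.71, adjusted p = 0.0079), Cebpb by 0.44 and Cebpa by 0.38. Esrra, a regulator of mitochondrial genes, fell by 0.27, and Nfe2l1 was not called (0.094). With both trends removed, Ppargc1a (0.58), Ppargc1b (0.87), Ppara (0.82) and Esrrg (0.98) were called higher and Cebpd (-0.67), Foxo1 (-0.39) and Tle3 (-0.34) lower. DESeq2 did not call Ppargc1b (adjusted p = 0.24). Ucp1 and Cidea were thus not called in libraries where Ppargc1a and Ppara were higher.

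Of 30 tested genes of fatty acid supply and oxidation, which fuels the heat production, 3 were higher and 6 lower (median -0.13). The shares over all tested genes were 15.5% higher and 10.7% lower. Lpl, the lipase that releases fatty acids from circulating lipoproteins, rose from 496.6 ± 53.2 to 835.9 ± 55.1 CPM (log2 fold change 0.75, adjusted p = 0.00054), and Cd36, a fatty acid transporter, rose (0.58, adjusted p = 0.0013). The lipases of stored fat, Pnpla2 (-0.34) and Lipe (-0.33), fell, and so did Cpt1b (-0.34), which admits fatty acids to mitochondria. Of the beta-oxidation enzymes, Acadvl (-0.35) and Acaa2 (-0.35) fell, and Hadha was not called (-0.14). With both trends removed, Lpl (0.48) and Fabp3 (0.81) were called higher and Fabp4 (-0.45) and Hadhb (-0.69) lower. Without fructose replicate 2 the 6 lower genes were no longer called.

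Heat can also be made without UCP1, for example by creatine and calcium cycling. Of 13 tested genes listed for heat production without UCP1, 5 were higher and 8 were not called (median 0.34). The shares of all tested genes were 15.5% higher and 10.7% lower. With both trends removed, 3 of the 13 were called higher (median 0.29), against 4% of all tested genes. Sln, sarcolipin, which uncouples the calcium pump of muscle, rose from 3.56 ± 1.08 to 8.58 ± 1.81 CPM (log2 fold change 1.27, adjusted p = 0.0036). Atp2a1 (1.46), Ckmt2 (1.54), Ryr1 (1.66) and Gatm (1.03) rose as well. The most abundant genes of the list were not called, namely the ADP/ATP carriers Slc25a5 (-0.19) and Slc25a4 (0.097) and the calcium pump Atp2a2 (0.11). Atp2a1 and Ryr1 also stand in the list of skeletal muscle markers, of which 23 of 24 were higher, with a median of 1.42. Their part in this result was not tested. Ckb, the creatine kinase of brown fat, was not called (-0.31, adjusted p = 0.059).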

How the data were processed

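Total RNA of fetal BAT was sequenced in 2 control and 2 fructose libraries. The authors filtered reads with fastp, mapped them to mm10 with Bowtie2 2.0.0.5 and TopHat2 2.0.0, and assembled transcripts with StringTie 2.2.0. They merged the assemblies with Cuffmerge, took counts per gene from the merged file and deposited raw counts. The counting tool, its strand setting and its handling of multi-mapping reads are not given in the sources used here.

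Ensembl identifiers were matched to GENCODE M21 (GRCm38). Groups were compared with edgeR 4.0.16 (R 4.3.3) by the quasi-likelihood test with TMM scaling, filterByExpr, no covariate and Benjamini-Hochberg adjustment over 12888 genes, and calls used an adjusted p-value under 0.05. TPM used merged exon lengths. Alternatives were DESeq2 1.42.0, other scalings and filters, removing trends with length and with GC content (lowess, span 0.3), the replicate number as a block, the thresholds of p under 0.05 with a fold above 1.3, and leaving out each library.

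The members and lists were chosen with earlier results of these data known. Named were the members, their family relatives, and in other lists the 4 genes of highest level and those called with an absolute log2 fold change above 0.5. In marker lists the gene of highest level was named, and for Ucp1 the 5 genes most like it. Not every gene the rule selects is described, and relatives with few or no counts are mostly left out. Genes named beyond this rule were chosen after their values were seen. Counts of 0 allow up to 3 counts, for counting error only.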

Additional observations from a re-analysis of the deposited data

How the results depend on the processing

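Elovl3 was called higher in 13 of 14 other settings and with each library left out, and DESeq2 gave 0.78 without a call (adjusted p = 0.15, range over the settings 1.01e-12 to 0.15). The count of members called higher was 1, but 0 by DESeq2, and 2 (with Dio2) when scaled to pan-adipocyte markers (Dio2 0.72), without a filter on low counts (Dio2 0.56) or at an unadjusted p under 0.05 with a fold above 1.3. The count of members called lower was 3, but 0 when scaled to pan-adipocyte markers (Cox7a1 -0.18, Cox8b -0.26, Kcnk3 -0.23). With the length trend removed it was 1, Kcnk3 (-0.46, adjusted p = 0.0042 by edgeR), while Cox7a1 (0.027) and Cox8b (-0.0036) were not called. It was 0 with the GC content trend removed (Cox7a1 -0.22, Cox8b -0.30, Kcnk3 -0.21) and 0 with both removed (Cox7a1 0.086, Cox8b 0.056, Kcnk3 -0.26). The cause of these changes was not tested.

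Dio2 was above 0 in every setting run, whereas the sign of Ucp1, Cidea and Otop1 depended on the setting. Ucp1 was 0.068 when scaled to pan-adipocyte markers and 0.077 with the length trend removed. Cidea was 0.059 by library size only, 0.17 scaled to pan-adipocyte markers, 0.0031 without a filter, 0.0081 with at least 10 counts in every library, 0.25 with the length trend removed, 0.14 without the GC content trend and 0.32 without either. Otop1 was 0.00024 by library size only, 0.11 scaled to pan-adipocyte markers and 0.0022 with both trends removed.

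The replicate numbers gave no sign of pairing (correlation of the deviations of same-numbered libraries -0.0266), and the replicate block alone changed no member's call (Dio2 0.56, adjusted p = 0.051) and gave 2117 genes higher and 1441 lower among all genes. The block with the length trend removed gave 1 member lower, Kcnk3 (-0.46, adjusted p = 0.0050 by edgeR). Not called there were Ucp1 (0.088), Cidea (0.25), Cox7a1 (0.027) and Cox8b (-0.0041). With the GC content trend removed, the block gave 1 lower, Cox8b (-0.29, adjusted p = 0.048 by edgeR). Cidea (0.14), Cox7a1 (-0.22) and Kcnk3 (-0.21) were not called there. With both removed, it gave 0 lower (Cidea 0.32, Cox7a1 0.086, Cox8b 0.056, Otop1 0.010, Kcnk3 -0.26).

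When 1 library was left out at a time, the lone library of a group being assumed to vary like the other group, the members called ranged from 1 to 2 higher and from 1 to 4 lower. The log2 fold changes ranged from -0.27 to 0.087 for Ucp1, -0.029 to 0.022 for Cidea, 0.27 to 0.89 for Dio2, 0.44 to 1.08 for Elovl3, -0.41 to -0.30 for Cox7a1, -0.56 to -0.30 for Cox8b, -0.23 to 0.13 for Otop1 and -0.45 to -0.35 for Kcnk3.

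Of the 135 tested genes in the lists outside the members, 32 were higher and 23 lower, against 15.5% and 10.7% of all tested genes. The higher count was 21 with the GC content trend removed, 14 with both, and 28 to 38 with a library left out. The lower count was 4 scaled to pan-adipocyte markers, 12 with the length trend removed, 15 with GC content and 8 with both. With the replicate block added these were 9, 15 and 10, and 6 to 31 with a library left out. Among all genes, 59.2% of calls were higher, against 72.3% by library size only, 93.9% scaled to pan-adipocyte markers, 49.1% without the GC content trend and 47.8% without either, which left 516 higher and 564 lower of 2001 and 1379. A library left out gave 1207 to 2225 higher and 485 to 1700 lower.

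With the longest transcript as length, TPM in control and fructose was 12465 and 12185 for Ucp1, 5435 and 5704 for Cidea, 2763 and 2269 for Cox7a1, 3203 and 2487 for Cox8b, and 212 and 169 for Kcnk3, and in fructose 2.74 for Dio2 and 51.6 for Otop1. Ucp1, Cidea, Cox8b and Dio2 have the same length by both measures (1636, 1115, 360 and 5815 bases). Their TPM therefore changed only through the lengths of other genes. Each group had 2 libraries, and Dio2 had 84 to 205 counts, which limits the precision.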

Other observations

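Marker lists of the cell types that dissected fetal BAT can hold gave the following values. Of 18 brown adipocyte markers, 4 were called higher (Ebf2, Ppara, Ppargc1a and Ntrk3) and 2 lower (Plin5 and Cpt1b), with a median log2 fold change of 0.14. Of 6 tested white adipocyte markers, 0 were called by edgeR or DESeq2 and 1 had an unadjusted p under 0.05 by edgeR, and the most abundant, Retn, was measured at 174 ± 79.6 CPM in the controls against 158 ± 16.4 CPM (SD, n = 2 libraries each). Skeletal muscle markers had the highest median of the lists (1.42), led in level by Acta1, skeletal actin, at 114 ± 27.3 and 253 ± 73.4 CPM, and 20 of 24 were called higher with both trends removed. Both tested cardiac markers were called higher by edgeR, Myl4 among them (0.56), and 0 by DESeq2, with a summed level of the list between 6.54 and 13.1 CPM and 3 of 10 markers at 0 counts in every library.

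Erythroid markers were lower, 5 of 10 called (median -0.51), with a summed level of 19206 and 15296 CPM in control and 11768 and 12143 CPM in fructose. Hbb-bs, adult beta globin, fell by 0.54 on the log2 scale (adjusted p = 0.0064), and 0 of the 10 were called by edgeR with both trends removed. Endothelial markers had 1 higher and 3 lower of 10 (Cdh5 -0.055), and macrophage markers 1 higher and 2 lower of 10 (Csf1r -0.035). Smooth muscle and pericyte markers had 3 higher of 12 (Pdgfrb -0.064), fibroblast and preadipocyte markers 1 higher and 1 lower of 12 (Col3a1 0.096), and Schwann cell and nerve markers 0 calls among 8 by edgeR, at an adjusted or unadjusted p under 0.05, and by DESeq2 (S100b -0.098). With both trends removed, 0 macrophage markers and 0 smooth muscle and pericyte markers were called. Endothelial markers then had 1 lower, and fibroblast and preadipocyte markers 2 lower. Over all tested genes, 15.5% were called higher and 10.7% lower under TMM scaling. The part of these cell types in the values of the thermogenic genes was not tested.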
